A study of Mus musculus with 18 samples.

Results

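The 1256 regions described here are stretches of H3K27me3 signal that lay deep inside protein-coding genes and recurred in some, but not all, of 12 libraries. They were chosen by a rule that used the deposited interval lists. Autosomal intervals of all 12 lists were joined where they overlapped, which gave 15649 regions. Those kept had an interval in 2 to 11 libraries, lay wholly within a protein-coding gene of the GRCm38 (mm10) mouse genome, and were at least 10 kb from both ends of every such gene. Presence or absence of an interval therefore chose the members, and it is given as a description without a test.

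H3K27me3 was mapped by bulk CUT&Tag, in which an antibody tethers the Tn5 transposase to chromatin carrying the mark, in mouse embryos, in tissue of the medial ganglionic eminence (MGE). This is a forebrain zone that produces cortical and striatal interneurons. Lists from 3 libraries were used for each of 4 groups: wild type (WT) and knockout (KO) on embryonic day E12.5, and both genotypes again on day E15.5. The knockout is labelled Nkx2.1-CreC/+;Ezh2;Ai9F/+, and it removes the methyltransferase gene Ezh2 from cells of the Nkx2.1 lineage. Fathers were Nkx2.1-CreC/C;Ezh2F/+ and mothers Ai9F/F;Ezh2F/+, so by the cross all embryos, WT included, carry the Cre driver and the Ai9 tdTomato reporter. The whole MGE was dissected at E12.5, and the tdTomato-positive MGE was dissected under fluorescence at E15.5. Embryos of 1 genotype could be pooled, and a dissected MGE also holds cells outside the Cre lineage. Another 6 samples of the series, from heterozygous embryos, were not analysed here.

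H3K27me3 is deposited by Polycomb repressive complex 2, whose catalytic subunit is EZH2 or its relative EZH1. The mark is best known at CpG-rich start sites of silent developmental genes, where it can spread into broad domains over neighbouring DNA. Inside long genes it can lie at alternative start sites, at distal regulatory elements, or in the flank of a domain that belongs to a neighbouring gene.

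Each deposited interval carries a count and a score. Depth was recovered from the scores as the mean count per 200 bp window, and it was lowest in replicate 1 of E15.5 WT (0.0751) and highest in replicate 2 of E12.5 WT (0.698). Counts inside intervals summed to between 573838 and 6846250 per library. E12.5 WT replicates 2 and 3, at 0.698 and 0.481, stood apart from the other 10 libraries, whose depth was at most 0.346. A normalised count is an interval count divided by its library's depth and multiplied by the mean depth of all 12. A library with no interval in a region was below the authors' threshold there, so its count is unknown and is not 0. In every library intervals lay within 2500 bp of an end of 9 or 10 of 10 MGE regulator genes, 11 of 11 Hox genes, 6 of 6 cortical regulators and 0 of 7 housekeeping genes. These lists do not measure Ezh2 RNA or protein, so the genotype labels were not checked by them.

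Some members covered an annotated start site inside their host gene, and the DNA just before 5 of these sites is printed because the members there recurred in 10 or 11 lists while the sequences range from very rich to poor in CG. Each line gives the 250 bases before the start in the RefSeq table for GRCm38.p6, written 5′ to 3′ on the gene's strand with every CG in capitals. The 5 were chosen after their values were seen.
Cacna1d, chr14:30353487-30353736, minus strand: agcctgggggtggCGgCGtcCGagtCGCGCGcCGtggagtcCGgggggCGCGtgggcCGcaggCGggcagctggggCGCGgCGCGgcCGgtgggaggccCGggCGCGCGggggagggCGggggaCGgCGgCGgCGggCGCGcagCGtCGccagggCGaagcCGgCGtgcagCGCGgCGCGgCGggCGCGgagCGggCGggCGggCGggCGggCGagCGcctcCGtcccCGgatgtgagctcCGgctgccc
Dab1, chr4:104367288-104367537, plus strand: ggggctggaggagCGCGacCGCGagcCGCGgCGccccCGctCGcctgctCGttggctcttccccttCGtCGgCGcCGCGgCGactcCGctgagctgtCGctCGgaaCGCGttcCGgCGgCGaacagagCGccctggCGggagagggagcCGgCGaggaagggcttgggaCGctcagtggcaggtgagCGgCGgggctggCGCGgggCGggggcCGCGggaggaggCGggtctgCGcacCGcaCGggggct
Foxp1, chr6:99028299-99028548, minus strand: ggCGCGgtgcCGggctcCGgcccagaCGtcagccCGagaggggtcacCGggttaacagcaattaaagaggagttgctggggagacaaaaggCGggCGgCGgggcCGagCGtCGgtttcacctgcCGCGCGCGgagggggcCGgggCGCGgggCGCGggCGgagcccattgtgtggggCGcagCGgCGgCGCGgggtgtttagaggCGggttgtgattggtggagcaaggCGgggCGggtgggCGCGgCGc
Mecom, chr3:30013205-30013454, minus strand: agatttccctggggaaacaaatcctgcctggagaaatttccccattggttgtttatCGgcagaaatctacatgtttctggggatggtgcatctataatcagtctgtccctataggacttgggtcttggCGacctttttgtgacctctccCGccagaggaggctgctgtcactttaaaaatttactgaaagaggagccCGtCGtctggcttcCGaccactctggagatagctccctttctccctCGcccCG
Kcnj3, chr2:55435720-55435969, plus strand: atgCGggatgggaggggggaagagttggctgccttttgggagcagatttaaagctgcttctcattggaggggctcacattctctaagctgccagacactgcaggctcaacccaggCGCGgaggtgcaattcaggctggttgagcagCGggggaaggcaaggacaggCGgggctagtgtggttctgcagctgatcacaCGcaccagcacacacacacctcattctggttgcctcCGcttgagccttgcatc

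Cacna1d encodes an L-type calcium channel subunit, and its window held 50 CG at 86.4% G and C. The member there, chr14:30348001-30356600, lay 138 kb inside the gene. Its normalised counts were 22.2, 96.7 and 87.6 in E12.5 WT replicates 1 to 3 and 45.3, 36.3 and 67.3 in E12.5 KO. At E15.5 they were none, 56.3 and 34.7 in WT and 40.7, none and 34.6 in KO, where "none" stands for no listed interval here and below. At both stages the listed WT and KO values overlapped. Dab1, the intracellular adaptor of Reelin signalling in neuronal migration, held 40 CG in its window, 748 kb from the gene's first start. That member, chr4:104365001-104372200, had 53.2, 61.4 and 52.4 in E12.5 WT and 39.2, 38.2 and 26.7 in E12.5 KO, and the groups did not overlap. Its E15.5 values were none, 42.2 and 62.4 in WT and 62.6, 51.8 and 33.1 in KO, and these overlapped.

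Foxp1 encodes a forkhead transcription factor of neuronal development, and its internal window held 34 CG, 494 kb from the first start. The member chr6:99024601-99031800 had 33.2, 44.3 and 31.4 in E12.5 WT. Of the KO libraries of that stage only replicate 3 had an interval, at 12.8, below all 3 WT values. At E15.5 the values were 34.6, 26.1 and 46.8 in WT and 20.4, 30.1 and 19.6 in KO, and they overlapped. Mecom, a zinc finger transcription factor gene, held 8 CG in its window, and Kcnj3, a G protein-gated potassium channel gene, held 7. The Kcnj3 member, chr2:55434401-55439400, had 62, 92.3 and 75.7 in WT and 46.5, 43.9 and 89.7 in KO at E12.5, then none, 34.2 and 36.4 in WT and 50.9, 27.7 and 28.6 in KO at E15.5. Members with few CG before their start thus stood among those listed in 11 libraries.

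Across the 1256 members, 194 (15.4%) held the start of some gene's transcript, 141 (11.2%) a start of the host gene itself, and 77 the start of another gene not annotated as protein-coding. Host gene starts numbered 170 in the members, or 21.1 per Mb of member sequence, against 2.02 per Mb over all eligible gene interior (1419 starts in 702 Mb). The share of regions with a start rose with recurrence, from 9.61% of members listed in 2 to 4 libraries through 21.4% in 5 to 8 to 30.3% in 9 to 11. It was 3.02% for regions inside genes listed in 1 library and 37.9% for the 169 listed in all 12. More recurrent regions were also longer, and per Mb the host starts were nearly level at 20.6, 21.9 and 20.8 across the same 3 classes, 17.7 in 1-library regions and 19.1 in regions of all 12. By width, members up to 4 kb held 56.8 host starts per Mb, those of 4 to 8 kb 26.6 and longer ones 6.23. Applied to the 10 libraries other than the 2 deepest, as an interval in 2 to 9 of them, the rule gave 917 regions, of which 16.2% held a start.

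**Figure D1:**
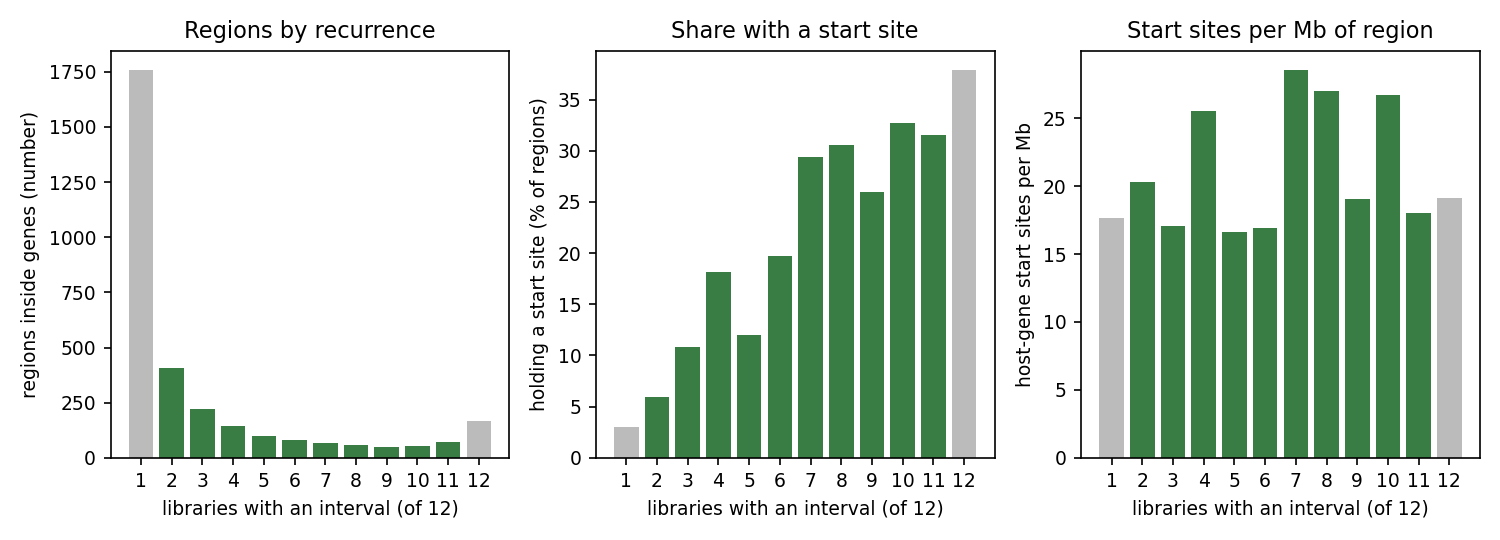
Regions inside genes by the number of libraries with an interval (1 to 12), as the number of regions, the percentage holding an annotated start site and the host gene start sites per Mb of region. Green bars are the members (2 to 11 libraries) and grey bars the regions outside the rule. Numbers fall from 405 members in 2 libraries to 73 in 11, the share with a start climbs, and the starts per Mb show no such climb.

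CpG content before a host gene start differed between starts inside and outside members. The median count of CG in the 250 bases before the start was 12 (quartiles 6 and 19) for starts in members and 15 for starts in the other regions inside genes. It was 4 for the 1141 interior starts in no region, and 10 for all 20085 autosomal starts of coding genes in the table. Of 267 interior starts with at least 15 CG, 71 (26.6%) lay in a member, and of 1152 with fewer, 99 (8.59%) did. Counting regions of any recurrence, these shares were 47.6% and 13.1%. CG was searched as the letters CG, which read the same on both strands.

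Members were a few kb long, with a median of 5000 bp (quartiles 3200 and 7600). Regions inside genes had a median of 1000 bp when listed in 1 library and of 14200 bp when listed in all 12, and recurrent regions within 10 kb of a gene end had a median of 3800 bp. Of the members, 405 were listed in 2 libraries, 222 in 3, 143 in 4, 100 in 5 and 81 in 6, and between 50 and 73 at each count from 7 to 11. The count per window over the library mean, as the median over listed members, lay between 4.24 and 12.1 across libraries. That median was lower than for regions inside genes listed in all 12 (9.30 to 17.6) and for recurrent regions near gene ends (5.40 to 13.3) in 12 of 12 libraries each. Against recurrent regions outside genes (4.21 to 11.6) it was lower in 3 of 12. Listing in every library is itself part of how the classes were drawn, so these levels are a description.

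At the distance limit, the members nearest to it were in Nr6a1, a nuclear receptor gene (chr2:38733401-38740400, 10032 bp from a gene end, 3 libraries), and in Slc6a17, a vesicular transporter gene (chr3:107477601-107480600, 10053 bp, 3 libraries). Just outside were regions in Rbfox3, a neuronal splicing regulator gene (chr11:118895201-118901600, 9997 bp, 3 libraries), and in Pik3ip1 (chr11:3330601-3333000, 9971 bp, 3 libraries). In all, 193 members lay 10 to 15 kb from a gene end, and 236 recurrent regions inside genes lay 5 to 10 kb from one. Intervals lie on a 200 bp grid, so these distances are as exact as that grid.

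The host genes were 746 of 9425 with any eligible interior (7.92%), and members covered 8.07 Mb, or 1.15%, of 702 Mb of such interior. Of the hosts, 519 held 1 member, 227 held at least 2 and 41 held at least 5. Hosts were long, with a median length of 139 kb against 46.6 kb for the other genes with eligible interior, although the number of members followed eligible length only weakly (Spearman rho 0.28 across 9425 genes, which are not independent replicates). Density was 1.79 members per Mb in all, and in 5 equal parts of the gene from its start to its far end it was 1.60, 1.73, 1.83, 1.86 and 2.06. By chromosome it ran from 0.897 on chromosome 13 to 3.34 on chromosome 11 and 3.64 on chromosome 19. Whether a member falls in an exon or an intron was not analysed here.

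Members clustered near regions that carried an interval in all 12 libraries. Density fell from 8.93 members per Mb of eligible interior less than 20 kb from such a region to 5.16 at 20 to 50 kb, 2.98 at 50 to 100 kb, 2.50 at 100 to 200 kb, 1.51 at 200 to 500 kb and 0.700 farther away. The nearest class held 241 members, 19.2% of them, in 3.90% of the interior, while the farthest held 240, or 19.1%, in 49.5%. Host genes also more often had an interval within 2500 bp of their own start in all 12 lists. This held for 163 of 582 hosts that could be scored (28.0%), against 546 of 6872 scored genes without a member (7.95%). The share was 24.2% for hosts with 1 member, 35.0% with 2 to 4 and 44.1% with 5 or more. The gap held within length classes, at 29.3% against 7.36% for up to 50 kb of eligible interior, 26.7% against 8.51% for 50 to 200 kb and 28.8% against 12.2% above 200 kb. Lists from the same 12 libraries define the members, the regions listed in all 12 and the intervals near starts, so the values are descriptions without a test.

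**Figure D2:**
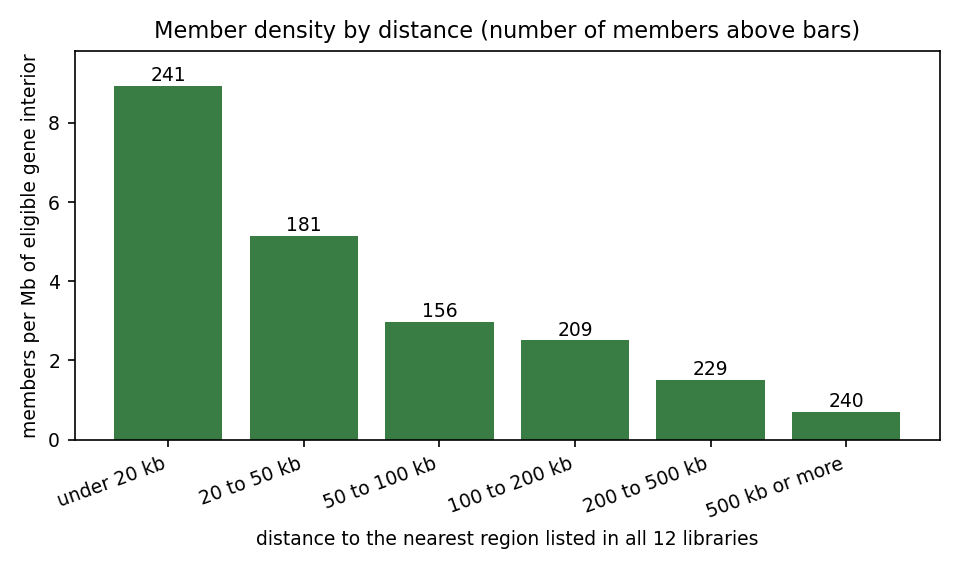
Members per Mb of eligible gene interior (bars, y axis) by distance to the nearest region with an interval in all 12 libraries (x axis), with the number of members above each bar. Density falls at each step, from 8.93 under 20 kb to 0.700 at 500 kb or more.

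For each of the 10 richest host genes, the nearest outside gene with an interval within 2500 bp of its start in all 12 lists was looked up. The genes searched were those of the start table. For Lrmda, named for melanocyte differentiation, it was Zfp503, a zinc finger gene of the ventral forebrain, 29.9 kb away. Fto encodes an RNA demethylase, and its introns are known to hold enhancers of Irx3, the homeobox gene that was nearest here, at 130 kb. Agap1, an ARF GTPase-activating protein gene, had the homeobox gene Gbx2 at 32.7 kb, and Nav2, a neuron navigator gene, had the homeobox gene Dbx1 at 21.4 kb. Skap1, a T-cell adaptor gene, had Nfe2l1, a bZIP factor gene, at 57.8 kb on 1 side and Hoxb1 at 96.3 kb on the other. Bcas3 had the T-box gene Tbx4 at 60.3 kb, and Jazf1 had Creb5, a bZIP factor gene, at 219 kb. For Gse1, Slit3 and Auts2 the nearest were 1190005I06Rik at 27.2 kb, Fbll1 at 88.9 kb and Galnt17 at 130 kb. How often other genes have such neighbours was not counted.

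Genes were also read by role, in 7 lists. Among long transcription factor genes, 27 of 52 with eligible interior held a member, and their 84 members gave 4.85 per Mb against 1.79 over all genes. The most members were in Auts2 (10), Prdm16 and Glis3 (7 each), Ebf1 and Zfhx3 (6 each) and Mecom (5). Auts2 (9.21 per Mb) counts toward the values of this list, although it encodes a partner of Polycomb repressive complex 1. Of axon guidance and migration genes 14 of 37 held a member (2.40 per Mb), led by Slit3 (12), a secreted ligand of Robo receptors, and Sema3a (4), a secreted repellent of growth cones. Synaptic adhesion genes held members in 14 of 31 (1.15 per Mb), with 6 members in Ntm and 5 in Tenm3, a teneurin gene. Extracellular matrix and growth factor genes held them in 8 of 31 (1.77 per Mb), led by Thsd4 (7). Cadherins held them in 4 of 19 (1.07 per Mb), led by Cdh22 (5), and ion channel genes in 7 of 31 (0.982 per Mb), led by Cacna1a (5). Neurotransmitter receptor genes held them in 3 of 28 (0.360 per Mb): Grik4, Grm3 and Oprm1.

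The 2 deepest libraries listed the most members and the shallowest listed the fewest. E12.5 WT replicates 1 to 3 listed 257, 1044 and 872 members (20.5%, 83.1% and 69.4%), and E12.5 KO listed 238, 496 and 604 (18.9%, 39.5% and 48.1%). At E15.5, WT listed 176, 313 and 416 (14.01%, 24.9% and 33.1%) and KO 495, 372 and 502 (39.4%, 29.6% and 40.0%). The group means were 57.7 ± 32.9% and 35.5 ± 15.0% in E12.5 WT and KO, and 24.0 ± 9.59% and 36.3 ± 5.82% in E15.5 WT and KO (SD, n = 3 each). WT was the deeper group at E12.5 apart from its replicate 1, at 0.117, 0.698 and 0.481 against 0.212, 0.272 and 0.243 in KO. KO was the deeper group at E15.5, at 0.179, 0.216 and 0.346 against 0.0751, 0.129 and 0.150 in WT. The part of depth in these shares was not tested.

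**Figure D3:**
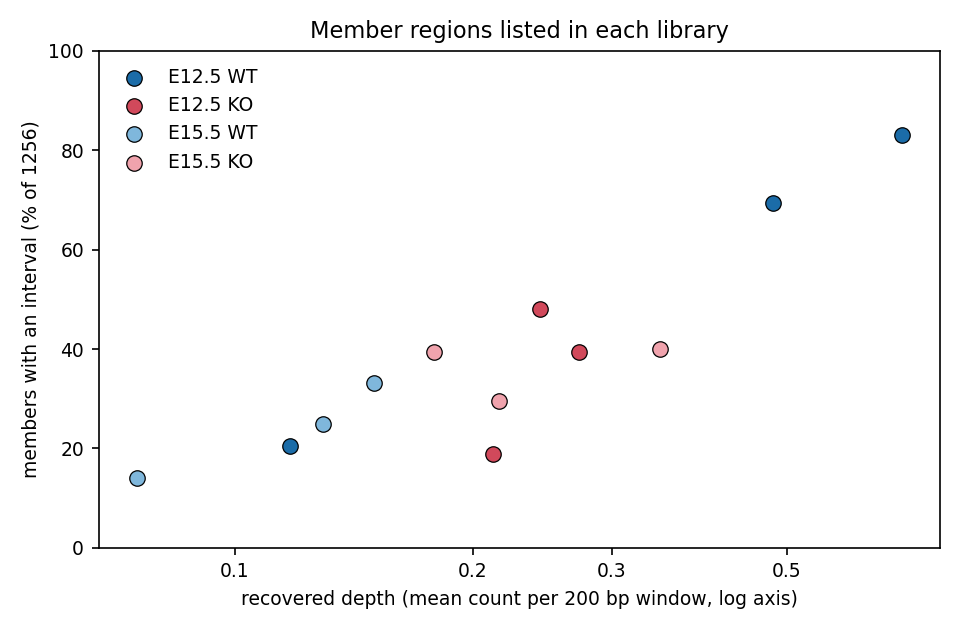
Percentage of the 1256 members with an interval (y axis) against recovered depth in mean counts per 200 bp window (x axis, log scale), 1 point per library, coloured by group. The 2 deepest libraries, both E12.5 WT, listed 83.1% and 69.4%, and the shallowest, an E15.5 WT library, 14.01%.

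Of all members, 434 (34.6%) were listed at E12.5 only, 110 (8.76%) at E15.5 only, 245 (19.5%) in WT only and 60 (4.78%) in KO only, and 627 (49.9%) were listed at both stages and in both genotypes. Of the members, 165 (13.1%) were listed in E12.5 WT replicates 2 and 3 and nowhere else, and 160 (12.7%) in neither of these. All 3 libraries of a group listed 251 members (WT) and 178 (KO) at E12.5, and 88 (WT) and 251 (KO) at E15.5. For the 73 members listed in 11 libraries, the missing one was E15.5 WT replicate 1, the shallowest, in 35, and E12.5 KO replicate 1 in 17.

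At E12.5, 26 members were listed in all 3 WT and no KO libraries, and this held for 1.5% of all 6925 recurrent regions. None was listed in all 3 KO and no WT libraries, against 0.0144% of recurrent regions (1 region). At E15.5 the numbers ran the other way, with 2 members in all 3 WT and no KO libraries (0.0866% of recurrent regions) and 40 in all 3 KO and no WT libraries (2.24%). The group with the higher mean depth was the listed one in the larger set at each stage. The choice of the set required every E12.5 WT library to list all 26 members. These libraries include E12.5 WT replicate 1, whose depth (0.117) was below those of the E12.5 KO libraries (0.212, 0.272 and 0.243). Over all members that replicate listed 257 (20.5%). The part of depth in these sets was not tested. For each member the mean count of the listing libraries was scaled to the depth of those without an interval. That expected count was above the lowest count listed there for an interval of the same length in all 3 libraries for 9 of the 26, 6 of the 40 and 2 of the 2.

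The longest of the 26 was in Tgfbr3, which encodes the TGF-beta co-receptor betaglycan (chr5:107137001-107182600, 45.6 kb). It had 99.7, 431 and 221 normalised counts in E12.5 WT and no interval in E12.5 KO. At E15.5 it was listed in all 6 libraries, at 370.1, 579 and 589 in WT and 432, 531 and 259 in KO, and the genotypes overlapped. Cacna2d2, a calcium channel auxiliary subunit gene (chr9:107459201-107483600, 24.4 kb), had 44.3, 263 and 170.3 in E12.5 WT, 100.3, 137 and 161 in WT and 138, 138 and 68.4 in KO at E15.5. Sntb2, a dystrophin-associated scaffold gene (chr8:106966401-106986000, 19.6 kb), had 59.8, 234 and 127, then 201, 317 and 335 and 167, 232 and 129 in the same 3 groups. Pde11a, a cyclic nucleotide phosphodiesterase gene (chr2:76027201-76044400, 17.2 kb), had 22.2, 103 and 52.4, then 48.4, 102 and 91.9 and 85.9, 66.2 and 69.2. The expected count was above the lowest listed count in 1 of the 3 E12.5 KO libraries for Tgfbr3 and for Pde11a. It was so in 2 for Cacna2d2 and in 3 for Sntb2. In all 4 genes the E12.5 WT replicate 1 value was the lowest of its group, and at E15.5 both genotypes had the interval in every library. These are among the longest of the 26, and shorter ones need not share this. Members in Grik4, Efna5 and Dgkg, among others, had no E15.5 interval in either genotype.

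The 5 longest members listed in all 3 E15.5 KO and no E15.5 WT libraries were in Epb41l4b, Mrps28, Rbfox3, Ptpn14 and Slco3a1. The expected count was above the lowest listed count in 1 of the 3 E15.5 WT libraries for Rbfox3. It was so in 2 for each of Epb41l4b, Mrps28, Ptpn14 and Slco3a1. Epb41l4b, a FERM domain gene (chr4:57078401-57096400, 18 kb), had 45.1, 22.9 and 36.1 in E15.5 KO. Rbfox3 (chr11:118591801-118605800, 14 kb) had 18.9, 21.7 and 12.8, and Slco3a1, an organic anion transporter gene (chr7:74520401-74531200, 10.8 kb), had 50.9, 56.6 and 20.3. Ptpn14, a tyrosine phosphatase gene (chr1:189784401-189797600, 13.2 kb), had 17.5, 20.5 and 19.6, and at E12.5 it had 46.5, 78.1 and 46.5 in WT and 44.1, 77.3 and 44.9 in KO, which overlapped. The pair with the opposite pattern at E15.5 were a member at an internal start of Lrrtm1, a synaptic adhesion gene that lies inside Ctnna2 (chr6:77240601-77246400), and a member at an internal start of Tmcc3 (chr10:94512801-94517600). The Lrrtm1 member had 31.1, 22.1 and 26 in E15.5 WT, and the Tmcc3 member 20.8, 18.1 and 22.5. At E12.5 both had an interval in all 6 libraries, with overlapping genotypes.

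Counts could be compared only where every library of a comparison had an interval, which left 119 members (of 3209 regions in all) for KO against WT at E12.5, 73 (of 2678) at E15.5, 35 (of 2549) for E15.5 against E12.5 in WT and 89 (of 3010) in KO. These members passed because they were listed in all 6 libraries, so their counts and medians do not stand for the 1256. Values are interval counts tested with edgeR's quasi-likelihood test over all such regions, scaled to depth, with Benjamini-Hochberg adjustment and a threshold of 0.05. A fitted log2 difference is followed by its standard error. Counts come from intervals whose covered length differs between libraries, so a lower value can mean a shorter listed stretch, lower signal, or both. In bulk tissue, fewer cells carrying the mark and less mark per cell cannot be told apart. Nothing in the labels ties a library to 1 embryo, so p-values measure the spread between these libraries. The 4 comparisons share libraries in pairs.

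At E12.5, 16 members were lower and 1 higher in KO than in WT at an adjusted p below 0.05, which is 13.4% and 0.840% of the 119, against 10.5% and 0.343% of all regions tested. The lower share was thus close to the background. The median log2 difference was -0.43 over the members and -0.56 over all regions, and 96 of the 119 were below 0. With TMM factors in place of depth, the median of all regions was -0.04, that of the members 0.09, and 6 members were lower and 6 higher. Of the 16 lower members, 12 had counts that did not overlap between the groups, against 87.2% of all regions called lower, and 6 had covered lengths that did not, against 40.1%. The lower members described below with their counts were picked from the 12 without overlap, so their separation follows from that choice. Lower members numbered 6 and 3 without E12.5 WT replicate 2 or 3, 9 and 7 without E12.5 KO replicate 1 or 2, and 36 without E12.5 KO replicate 3.

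Synaptic adhesion genes led the lower members. Ntm encodes neurotrimin, a membrane-anchored adhesion molecule of neurons, and its member (chr9:29229001-29253800, 24.8 kb) had 177, 414 and 372 normalised counts in E12.5 WT and 60.01, 62 and 49.1 in E12.5 KO. The groups did not overlap. The log2 difference was -2.50 ± 0.40, with an adjusted p of 1.00e-07 by edgeR's quasi-likelihood test, and it was -1.93 ± 0.27 with TMM factors (adjusted p 0.00149). Its listed intervals covered 10.2, 24.8 and 18.2 kb in WT and 9.4, 5.8 and 3 kb in KO. Tenm2, a teneurin that bridges synaptic partners, had 153, 287 and 297 in WT and 30.6, 48.7 and 56.6 in KO (chr11:36149201-36168600, 19.4 kb), again without overlap. The difference was -2.44 ± 0.42 (edgeR, adjusted p 9.07e-07) and -1.93 ± 0.22 with TMM factors (adjusted p 4.08e-04). These were the 2 members of that list that could be tested at E12.5.

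Of 7 members in long transcription factor genes, 2 were lower, in Ebf1 and Rora, and the median of the 7 was -0.32. The Ebf1 member, in an early B-cell factor gene that also acts in striatal neurons (chr11:44736401-44750000, 13.6 kb), had 39.9, 141 and 145 in WT and 26.9, 34.4 and 22.4 in KO. WT replicate 1 lay close to the highest KO value, and the groups did not overlap. The difference was -1.99 ± 0.45 (edgeR, adjusted p 3.80e-04), and with TMM factors -1.43 ± 0.40 at an adjusted p of 0.0526. Of 4 axon guidance members 1 was lower, in Slit3 (chr11:35539001-35546800, 7.8 kb), at 59.8, 88.6 and 83.8 in WT and 28.2, 14.3 and 38.5 in KO without overlap. That difference was -1.54 ± 0.43 (edgeR, adjusted p 0.0077), and with TMM factors -1.03 ± 0.31 at an adjusted p of 0.074.

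Of 4 extracellular matrix and growth factor members, 2 were lower, in Fgf12 (-1.20; edgeR, adjusted p 0.0293), an intracellular relative of the fibroblast growth factors, and in Ror2 (-1.11; edgeR, adjusted p 0.0497), a Wnt receptor, and 1 was higher, in Thsd4. Thsd4 encodes an ADAMTS-like matrix protein, and its member (chr9:60268001-60282600, 14.6 kb) was the 1 higher in KO, at 90.8, 130.2 and 115 in WT against 149, 262 and 359 in KO, without overlap. The difference was 1.19 ± 0.39 (edgeR, adjusted p 0.0284) and 1.68 ± 0.18 with TMM factors (adjusted p 2.38e-04). At E15.5 the same member had 41.5, 26.1 and none in WT and 59.7, 98.7 and 96.3 in KO, and the listed values did not overlap there either. None of 4 ion channel, 2 cadherin and 1 receptor members passed, with medians of -0.65, -0.71 and 0.03.

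The other lower members named by the rule on size were in Pappa, Myo5b, Dmrt1, Elp4, Dab1 and Frmd4b. Pappa, a secreted protease of insulin-like growth factor binding proteins (chr4:65237001-65260600, 23.6 kb), had 166, 241 and 255 in WT and 85.7, 47.7 and 84.4 in KO (log2 -1.62 ± 0.41; edgeR, adjusted p 0.00242). Myo5b, a vesicle-transport myosin, had 208, 448 and 378 in WT and 67.4, 98.3 and 122 in KO (log2 -1.86 ± 0.38; edgeR, adjusted p 6.24e-05; -1.33 ± 0.19 and adjusted p 0.00152 with TMM factors). Elp4, a subunit of the Elongator complex (chr2:105711801-105734800, 23 kb), had 366, 488 and 539 in WT and 163, 214 and 171 in KO (log2 -1.35 ± 0.35; edgeR, adjusted p 0.0033). A second Dab1 member (chr4:103748801-103766800, 18 kb) had 133, 219 and 242 in WT and 68.6, 85.9 and 90.8 in KO (log2 -1.29 ± 0.41; edgeR, adjusted p 0.0227). In these 4 the groups did not overlap. Dmrt1, a gonadal transcription factor gene (chr19:25569401-25578800, 9.4 kb), had 55.4, 94.1 and 74.6 in WT and 19.6, 44.8 and 11.8 in KO, and Frmd4b, a FERM domain scaffold gene (chr6:97484201-97489200, 5 kb), had 86.4, 55.4 and 70.8 and 26.9, 14.3 and 44.9. Their differences were -1.56 ± 0.43 and -1.28 ± 0.42 (edgeR, adjusted p 0.00631 and 0.0309). The groups did not overlap, and neither of these 2 passed with TMM factors (edgeR, adjusted p 0.216 and 0.252).

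**Figure D4:**
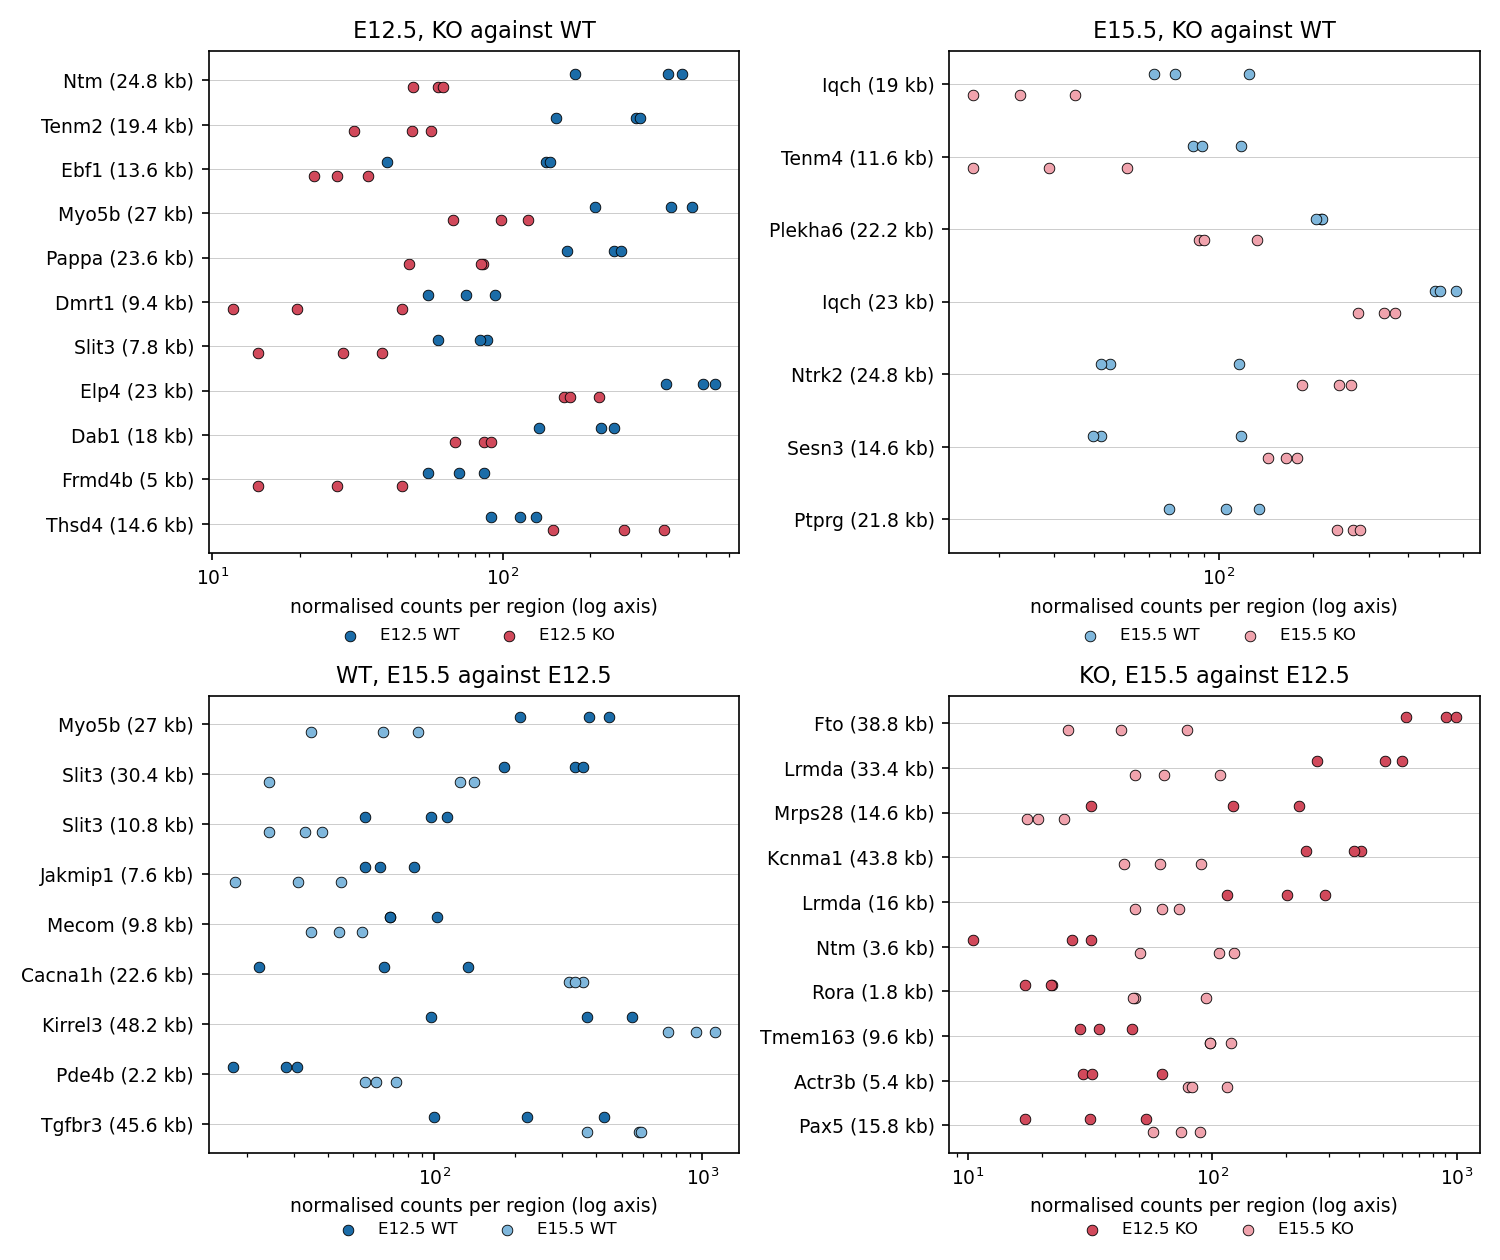
Normalised counts per region (x axis, log scale) in each library for the members named from the 4 comparisons (y axis, host gene and width), 1 point per library and 3 per group. In the E12.5 panel the WT points lie to the right of the KO points for every member but Thsd4, and in the panel of KO over time the E12.5 points lie to the right for the top 5 members and to the left for the bottom 5. Where more members passed than are drawn, only those without overlap could be drawn. The separation of the E12.5 lower members therefore follows from that choice.

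At E15.5, 4 members were lower and 3 higher in KO than in WT, of 73 tested, against 1.42% lower and 3.17% higher of all regions. Medians were near 0 for the members (-0.03) and for all regions (-0.02). With TMM factors 6 were lower and 5 higher, and all 7 calls remained. In each of the 7 the counts did not overlap between genotypes, which held for 98.4% of all regions called. Without E15.5 KO replicate 3, 0 members were lower by edgeR, although 6 had a lower value at an unadjusted p below 0.05, without E15.5 WT replicate 2, 2 were lower, and without E15.5 WT replicate 1, 10 were.

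The lower members at E15.5 were in Iqch (2 adjacent members), Tenm4 and Plekha6. Iqch encodes an IQ motif protein, and its longer member (chr9:63480001-63503000, 23 kb) had 488, 504 and 567 in WT and 335, 365 and 278 in KO. The difference was -0.68 ± 0.14 (edgeR, adjusted p 0.0114). The neighbouring one (chr9:63503801-63522800, 19 kb) had 72.6, 125 and 62.4 in WT and 23.3, 34.9 and 16.5 in KO, a difference of -1.83 ± 0.37 (edgeR, adjusted p 0.0114). At E12.5 the longer one had 288, 585 and 375 in WT against none, 11.5 and 17.1 in KO, and the other 22.2, 206 and 117 in WT and no interval in KO. Plekha6, a pleckstrin homology domain gene (chr1:133185001-133207200, 22.2 kb), had the same order at both stages, with 119.6, 247 and 212 in WT and none, 8.59 and 10.7 in KO at E12.5, then 211, 213 and 205 in WT and 132, 86.7 and 89.5 in KO at E15.5. Its E15.5 difference was -1.04 ± 0.21 (edgeR, adjusted p 0.0114). Tenm4, a teneurin (chr7:96569201-96580800, 11.6 kb), had no interval at E12.5, and 83, 88.4 and 118 in E15.5 WT against 50.9, 28.9 and 16.5 in KO (log2 -1.66 ± 0.37; edgeR, adjusted p 0.0204).

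The 3 higher members were in genes for a receptor tyrosine kinase, a receptor phosphatase and a sestrin. Ntrk2, which encodes TrkB, the receptor of brain-derived neurotrophic factor (chr13:58951001-58975800, 24.8 kb), had 45, 42.2 and 116 in WT and 242, 264 and 184 in KO at E15.5. The difference was 1.69 ± 0.32 (edgeR, adjusted p 0.00748). Ptprg (chr14:11949001-11970800, 21.8 kb) had 69.2, 135 and 106 in WT and 268, 282 and 237 in KO, a difference of 1.30 ± 0.21 (edgeR, adjusted p 0.00341). Sesn3, a stress-response regulator gene (chr9:14295601-14310200, 14.6 kb), had 118, 42.2 and 39.9 in WT and 178, 143 and 164 in KO (log2 1.39 ± 0.34; edgeR, adjusted p 0.0325). The groups did not overlap in any of the 3. By list, 1 of 4 synaptic adhesion members was lower at E15.5 (Tenm4; median of the 4, -0.57), and none passed of 5 transcription factor, 2 axon guidance and 2 extracellular matrix members (medians 0.27, 0.36 and -0.26).

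Between stages in WT, 7 members were lower and 4 higher at E15.5 than at E12.5, of 35 tested. Of all regions tested, 44.1% were lower and 3.69% higher. The lower share among members (7 of 35) was below the background, and the medians were -0.30 and -0.59. With TMM factors the median of all regions was -0.09, that of the members turned to 0.23, and 3 members were lower and 7 higher. Lower members numbered 12 without E12.5 WT replicate 1, 4 without E15.5 WT replicate 3 and 3 without any 1 of the other 4 libraries. The E12.5 tissue was the whole MGE and the E15.5 tissue its tdTomato-positive part, so stage and dissection cannot be told apart.

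The Myo5b member fell from 208, 448 and 378 at E12.5 to 34.6, 64.3 and 86.7 at E15.5 in WT (log2 -2.44 ± 0.36; edgeR, adjusted p 3.32e-04). Both axon guidance members tested were lower, and both lay in Slit3. The longer (chr11:35552601-35583000, 30.4 kb) went from 182, 334 and 360.1 to 24.2, 141 and 125 (log2 -1.55 ± 0.44; edgeR, adjusted p 0.0122). The other (chr11:35361001-35371800, 10.8 kb) went from 55.4, 112 and 97.3 to 24.2, 38.2 and 32.9 (log2 -1.48 ± 0.36; edgeR, adjusted p 0.00596). None of these 3 overlapped between stages, which the choice of named lower members required. Jakmip1, a microtubule-associated protein gene (chr5:37087601-37095200, 7.6 kb), and the Mecom member printed above passed when scaled to depth, at -1.11 ± 0.36 and -0.84 ± 0.33 (edgeR, adjusted p 0.022 and 0.0471), and did not with TMM factors (adjusted p 0.108 and 0.264). Mecom was the 1 lower of 3 transcription factor members, whose median was -0.18.

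Higher at E15.5 in WT were members in Cacna1h, Kirrel3, Pde4b and Tgfbr3. Cacna1h, a T-type calcium channel gene (chr17:25394401-25417000, 22.6 kb), went from 22.2, 134 and 64.9 to 359.7, 317 and 335 (log2 2.10 ± 0.43; edgeR, adjusted p 0.00228). Kirrel3, an immunoglobulin-family synaptic adhesion gene, held the longest member of all (chr9:34529601-34577800, 48.2 kb), which went from 97.5, 546 and 371 to 747, 950.3 and 1118 (log2 1.43 ± 0.39; edgeR, adjusted p 0.0102). In KO the same member had none, 32.4 and 24.6 at E12.5 and 1073, 1125 and 668 at E15.5. Pde4b, a cyclic AMP phosphodiesterase gene (chr4:102492801-102495000, 2.2 kb), went from 17.7, 27.9 and 30.8 to 55.3, 72.3 and 60.7 (log2 1.24 ± 0.28; edgeR, adjusted p 0.00428). Stages did not overlap in these 3, while the Tgfbr3 member, described above, overlapped between stages (log2 1.00 ± 0.38; edgeR, adjusted p 0.0425).

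In KO, 16 members were lower and 5 higher at E15.5 than at E12.5, of 89 tested, against 7.41% and 6.28% of all regions. The median was -0.32 over the members and -0.07 over all regions. Counts did not overlap between stages in any of the 21, which held for 96.6% of all regions called, and all 21 calls remained with TMM factors, under which 21 members were lower and 6 higher. Leaving out E12.5 KO replicate 2, E15.5 KO replicate 2 or E15.5 KO replicate 3 left 10 lower members each.

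Fto held the member with the largest difference (chr8:91499801-91538600, 38.8 kb), from 623, 909 and 991 at E12.5 to 78.6, 42.1 and 25.6 at E15.5. The log2 difference was -4.15 ± 0.35 (edgeR, adjusted p 1.05e-28). In WT the same member had 569, 823 and 869 at E12.5 and none, 20.1 and 38.1 at E15.5, so both genotypes were high at E12.5 and low or unlisted at E15.5. Between genotypes at E12.5 it differed by 0.15 ± 0.30 scaled to depth (edgeR, adjusted p 0.678). With TMM factors that difference was 0.68 ± 0.14, at an adjusted p of 0.0171. Lrmda held 2 of the named members. The longer (chr14:22332601-22366000, 33.4 kb) went from 269, 598 and 511 to 108, 48.2 and 63.2 (log2 -2.67 ± 0.34; edgeR, adjusted p 2.70e-13), and the other (chr14:22105401-22121400, 16 kb) from 115, 290.1 and 203 to 72.8, 48.2 and 62.4 (log2 -1.73 ± 0.36; edgeR, adjusted p 2.90e-05). Kcnma1, the large-conductance calcium-activated potassium channel gene (chr14:23357801-23401600, 43.8 kb), went from 241, 407 and 381 to 90.2, 43.4 and 60.9 (log2 -2.42 ± 0.34; edgeR, adjusted p 6.88e-11), and was the 1 lower of 2 ion channel members. Mrps28, a mitochondrial ribosome gene (chr3:8860201-8874800, 14.6 kb), went from 31.8, 121 and 225 to 17.5, 19.3 and 24.8 (log2 -2.59 ± 0.41; edgeR, adjusted p 1.21e-08).

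The 5 higher members lay in Ntm, Rora, Pax5, Tmem163 and Actr3b. A second Ntm member (chr9:29481801-29485400, 3.6 kb) went from 31.8, 10.5 and 26.7 to 122, 50.6 and 107 (log2 2.03 ± 0.41; edgeR, adjusted p 1.66e-05), and it was the 1 higher of 3 synaptic adhesion members. Rora, an orphan nuclear receptor gene (chr9:69098801-69100600, 1.8 kb), went from 22, 21.9 and 17.1 to 94.6, 48.2 and 47.4 (log2 1.62 ± 0.43; edgeR, adjusted p 0.00225). Pax5, a paired-box factor of the midbrain and of B cells (chr4:44555401-44571200, 15.8 kb), went from 17.1, 31.5 and 53.4 to 88.8, 74.7 and 57.2 (log2 1.09 ± 0.40; edgeR, adjusted p 0.0432). Rora and Pax5 were the 2 higher of 6 transcription factor members, whose median was 0.49. Tmem163, a zinc transporter gene (chr1:127532601-127542200, 9.6 kb), went from 34.3, 28.6 and 47 to 97.5, 97.5 and 119.6 (log2 1.52 ± 0.39; edgeR, adjusted p 0.00141), and Actr3b, an actin-related protein gene (chr5:25814401-25819800, 5.4 kb), from 62.5, 29.6 and 32.1 to 115, 79.5 and 82.7 (log2 1.16 ± 0.39; edgeR, adjusted p 0.0224). None of 4 axon guidance and 3 cadherin members passed (medians -0.05 and 0.16), while the 1 receptor member tested, in the glutamate receptor gene Grm3 (-1.31; edgeR, adjusted p 0.00704), and 1 of 2 extracellular matrix members, in Thsd4 (-1.59; edgeR, adjusted p 5.28e-05), were lower.

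The longest members not yet described lay in Kirrel3, Bahcc1, Tll2 and Fto, and each could be tested in only some of the comparisons. A second Kirrel3 member (chr9:34647001-34676400, 29.4 kb) had none, 284 and 106 at E12.5 in WT with none in KO, and 709, 739 and 718 in WT and 984, 1036 and 797 in KO at E15.5. Every E15.5 value was above every listed E12.5 value, as for the longest Kirrel3 member. KO was above WT in every E15.5 library, by 0.38 ± 0.12 (edgeR, adjusted p 0.11; 0.0439 with TMM factors). A member in Bahcc1, a chromatin reader gene (chr11:120246201-120275600, 29.4 kb), was unlisted at E12.5 and had 149, 117 and 125 in WT and 124, 223 and 60.2 in KO at E15.5, which overlapped (0.05 ± 0.36; edgeR, adjusted p 0.959).

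Tll2, a tolloid-like metalloprotease gene (chr19:41168201-41196600, 28.4 kb), had 64.3, 152 and 109.8 in WT and 95.5, 296 and 191 in KO at E12.5, then none, none and 32.9 in WT and 154, 202 and 174 in KO at E15.5. Its genotypes overlapped at E12.5, with a difference of 0.81 ± 0.40 (edgeR, adjusted p 0.138) that was 1.35 ± 0.32 with TMM factors (adjusted p 0.0282). Over time in KO it differed by -0.14 ± 0.32 (edgeR, adjusted p 0.852). A second Fto member (chr8:91354001-91382200, 28.2 kb) had 182, 409 and 243 in WT and 159, 355 and 302 in KO at E12.5, then 20.8, none and 19.1 in WT and 111, 65 and 111 in KO at E15.5, with every listed E15.5 value below every E12.5 value. It was 1 of the 16 lower over time in KO, at -1.51 ± 0.33 (edgeR, adjusted p 1.11e-04), and at E12.5 KO differed from WT by -0.04 ± 0.35 (edgeR, adjusted p 0.927).

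The members of a gene were also summed, with 0 here meaning that no member of the gene was listed. A sum is weighted to the longest members and does not show whether the members moved together. The 18 members of Lrmda (17.7 per Mb) summed to 456, 1082 and 986 in WT and 385, 1032 and 782 in KO at E12.5, then 24.2, 125 and 208 in WT and 322, 113 and 148 in KO at E15.5. The 12 of Fto (35.8 per Mb) summed to 773, 1417 and 1262, 801, 1312 and 1330.1, 20.8, 20.1 and 57.2 and 217, 107 and 146 in the same groups. In both genes every E12.5 library was above every E15.5 library, and the genotypes overlapped at E12.5. In Fto the E15.5 KO sums all exceeded those of E15.5 WT, whereas in Lrmda these groups overlapped.

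Slit3 differed from these. Its 12 members (21.2 per Mb) summed to 461, 935 and 870.5 in E12.5 WT and 114, 126 and 256 in E12.5 KO, and to 48.4, 293 and 284 and 317, 261 and 227 at E15.5, so the genotypes were apart at E12.5 and overlapped at E15.5. Auts2, which encodes a partner of Polycomb repressive complex 1, had 10 members (9.21 per Mb) that summed to 19.9, 167 and 109 in E12.5 WT and 0, 0 and 9.62 in E12.5 KO. At E15.5 its sums were 51.9, 143 and 206 in WT and 84.4, 0 and 44.4 in KO, and these overlapped. Nav2 (11 members, 17.4 per Mb) had 124, 496 and 442, 189.8, 373 and 405, 69.2, 74.3 and 81.5 and 287, 291 and 234, with E15.5 WT below all 9 other libraries. Gse1, a coiled-coil protein gene, held 13 members at the highest density of the 10 richest hosts, 39.1 per Mb, and had 0, 183 and 20.01, 20.8, 53.4 and 36.3, 20.8, 104 and 172 and 196, 211 and 129. The E12.5 WT values of Gse1 spread from 0 in the shallowest of the 3 libraries to 183 in the deepest.

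Agap1 (11 members, 26.2 per Mb) summed to 0, 233 and 138 in WT and 25.7, 115 and 112 in KO at E12.5, then 0, 100.5 and 93.6 in WT and 259, 178 and 133 in KO at E15.5. At E15.5 every KO library was above every WT library. Bcas3 (8 members, 17.7 per Mb) had 22.2, 306 and 219.5, 62.5, 137 and 149.6, 0, 24.1 and 0 and 116, 73.5 and 35.3, with the same order at E15.5. In both genes the genotypes overlapped at E12.5. Skap1 (9 members, 32.7 per Mb) had 0, 259.7 and 127, 58.8, 84.9 and 72.6, 51.9, 24.1 and 62.4 and 91.7, 54.2 and 34.6, and Jazf1 (8 members, 28.5 per Mb) had 51, 353 and 201, 0, 148 and 81.2, 173, 147 and 227 and 179, 190.3 and 102. In these 2 genes the genotypes overlapped at both stages. Sums rest on different numbers of listed members in each library.

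**Figure D5:**
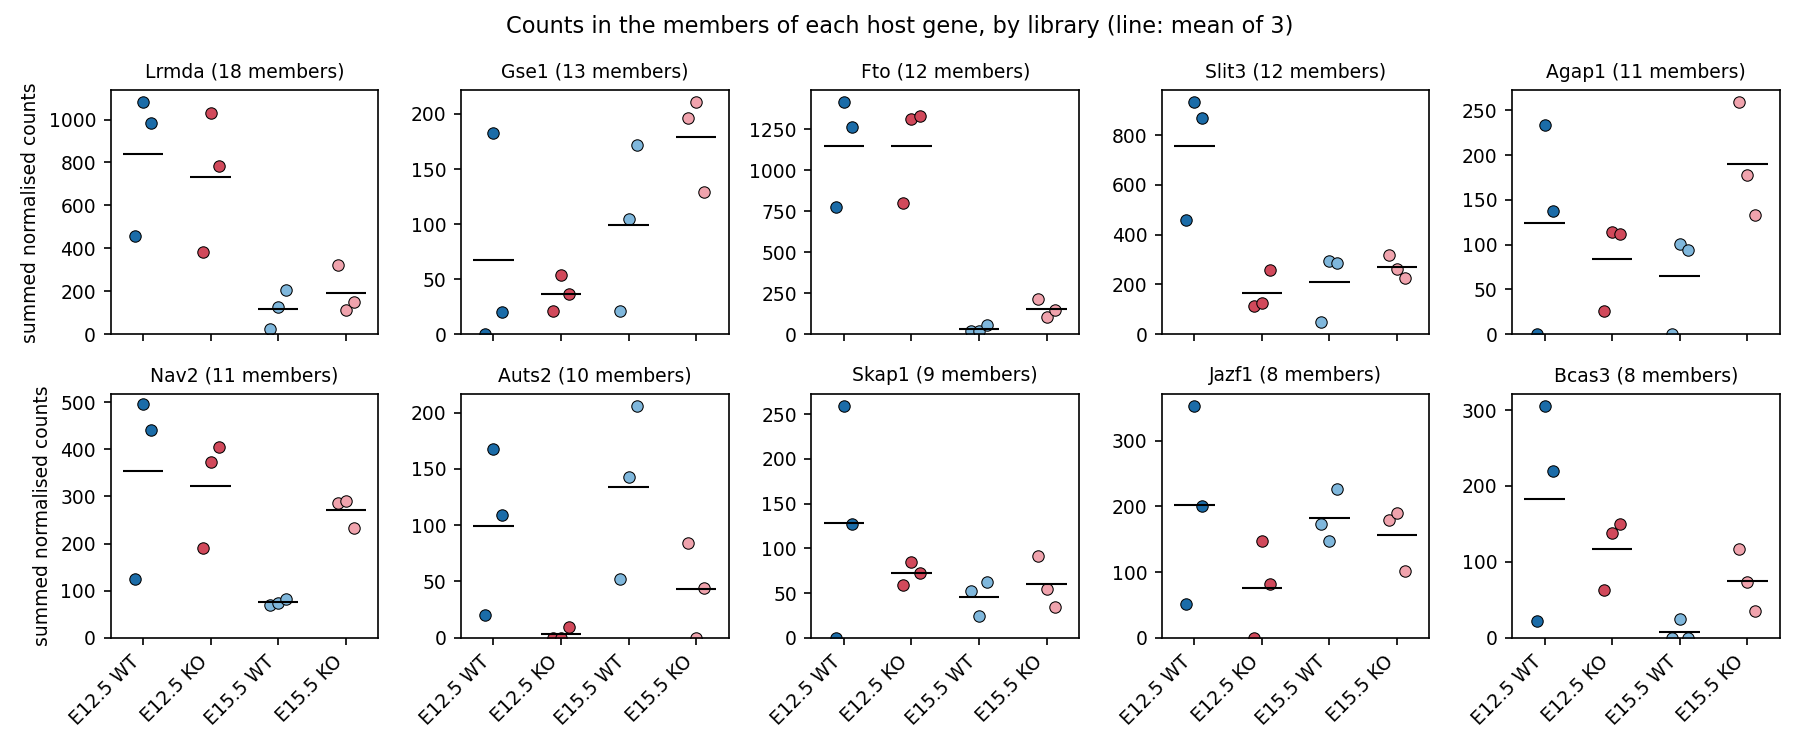
Summed normalised counts (y axis, each panel with its own scale from 0) of all members in each of the 10 host genes with the most members, by group (x axis), with 1 point per library and a line at the mean of 3. A point at 0 is a library with no listed member. Lrmda and Fto are high at E12.5 in both genotypes, and in Slit3 the E12.5 WT points stand above those of the other groups.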

How the data were processed

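H3K27me3 CUT&Tag lists of 12 libraries (3 per group) were used, and 6 samples were not analysed here. Each list gives intervals with a count and a score, as deposited by the authors; what each column holds was read from the values, not from a header. The submitters' processing notes name cutadapt, Bowtie2, SAMtools, Picard, deepTools and SICER, and the builds GRCm38 and mm10. Peak threshold and versions are not given in the sources used here, and lists were given per library. In intervals of a single 200 bp window, the deposited score equals the negative natural log of the count's Poisson probability, which gave each library's mean count per window, used as its depth. Counts are of reads or fragments without molecular identifiers, and depth limits which intervals are listed.

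Intervals were joined into regions and gene spans, start sites and bases before them came from the RefSeq GRCm38.p6 tables. Deposited counts were summed per region and tested with edgeR 4.0.16 (R 4.3.3) where all 6 libraries had an interval, with library sizes proportional to depth and Benjamini-Hochberg adjustment over all regions. Alternatives were TMM factors, DESeq2 1.42.0, a mean count of at least 50, equal covered length, a replicate block, and leaving out each library. In a check on simulated counts, 200 regions were changed 2-fold, of which edgeR found 27.5% (E12.5), 81.5% (E15.5), 61.0% (WT over time) and 40.0% (KO over time), with 1, 6, 7 and 4 false calls. The simulated counts had the same relative spread in every region, no listing threshold and no differences in covered length. These rates therefore need not hold for the deposited counts.

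Members named in the text were those passing the test (the 10 with the largest change per direction, or 5 between stages, whose groups do not overlap where more passed), the 10 longest, the 10 hosts with most members, the 5 longest listed in all libraries of 1 genotype only, list leaders (1 is not reported here), and those next to the limits. Members and gene lists were chosen with earlier results of these data known.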

Additional observations from a re-analysis of the deposited data

Results flagged for a closer look

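In 3 named members the direction of a contrast was opposite in its 2 settings, with values that did not overlap within either. These differences were not tested, because no member has an interval in all 12 libraries. Values are log2 ratios of the mean normalised counts of the libraries with an interval. The Ptprg member was lower in KO than in WT at E12.5 (-0.80, 2 listed libraries against 2) and higher at E15.5 (1.35, 3 against 3). Its E12.5 values were 36.5 and 17.8 in WT and 15.3 and 16.0 in KO, so the gap there was narrow. The KO values rest on counts of 16 and 15. The WT values came from the 2 deepest libraries, since WT replicate 1 had no interval there either. The Slit3 member of 10.8 kb was lower at E15.5 than at E12.5 in WT (-1.47, 3 libraries each) and higher in KO (1.66, 2 earlier and 3 later libraries). The Mecom member was likewise lower over time in WT (-0.86) and higher in KO (1.14), with the same numbers of libraries. For all 3 the E12.5 KO values came from replicates 2 and 3, since replicate 1 had no interval.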

How the results depend on the processing

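None of the 37 results for named members turned direction in 365 alternatives, 72 of which lost the threshold, and 17 of the 37 kept it throughout. The 37 had passed the main test, and all but Tgfbr3 had groups without overlap. Leaving out 1 library could therefore not turn their direction. None of the 37 could be tested at covered lengths within 1.5-fold, so the 365 do not include that alternative. The counts of changed members moved more. At E12.5 the 16 lower members became 6 with TMM factors and 7 with DESeq2, and the 1 higher became 6, 10 and, with a replicate block, 2. At E15.5 the 4 lower became 2 at a mean count of at least 50, and the 3 higher became 5 with TMM factors. In WT over time the 7 lower became 3 with TMM factors and 2 with DESeq2, and the 4 higher became 7 and 10. In KO over time the 16 lower became 9 and the 5 higher became 3 with the replicate block, and the higher also became 3 at a mean count of at least 50.

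Only 3, 3, 0 and 3 members had covered lengths within 1.5-fold across the libraries of the 4 comparisons. Among these edgeR called 0 lower and 0 higher at E12.5 (0 at an unadjusted p below 0.05), 0 lower and 2 higher at E15.5 (0 and 2 at an unadjusted p below 0.05), and 1 lower and 0 higher in KO over time (1 and 0 at an unadjusted p below 0.05). The 2 higher at E15.5 were not called in the main test. Its 3 higher members, in Ntrk2, Ptprg and Sesn3, had covered lengths that differed more than 1.5-fold. In WT over time no member was left. DESeq2 was not run there.

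Leaving out each library in turn gave 3 to 36 lower and 0 to 5 higher members at E12.5, 0 to 10 and 2 to 5 at E15.5, 3 to 12 and 3 to 6 in WT over time, and 10 to 19 and 2 to 6 in KO over time. For the higher members, 0 were called by edgeR at E12.5 without any 1 WT library or KO replicate 2 (1 to 7 higher at an unadjusted p below 0.05), 2 without KO replicate 1 and 5 without KO replicate 3. At E15.5, 5 were called without WT replicate 1, and in KO over time 2 and 3 without E15.5 KO replicate 1 or 2. Where a group was left with 2 libraries, its spread was taken from the joint fit.

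The number of members was 1104 when intervals within 1 kb were joined, 867 without the lowest-scoring 25% of each list, 1492 and 936 at 5 and 20 kb from gene ends, 851 for 3 to 11 libraries, 1074 to 1264 without any 1 library, and 917 without both deepest libraries (chosen after the data were seen). Without the lowest-scoring 25%, the mean share listed was 42.5% in E12.5 WT and 25.1% in E12.5 KO. At E15.5 it was then 14.7% in WT and 25.1% in KO. For 3 to 11 libraries the shares were 66.2%, 47.8%, 32.2% and 48.7% in the same order of groups. Replicate numbers were not used to pair samples in the main test. Deviations of same-numbered libraries from their group means correlated at 0.22, 0.03 and 0.11 at E12.5, -0.25, -0.09 and -0.14 at E15.5, 0.25, 0.03 and 0.13 in WT and 0.12, 0.09 and 0.10 in KO, over 2368 regions. The best match had the same number for every replicate in KO, for replicates 1 and 3 at E12.5 and in WT, and for none at E15.5. These values do not settle whether replicate numbers pair the samples. The cause of these changes was not tested. An absent interval gives no count, and depth was lowest in E15.5 WT replicate 1.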
